A study of Mus musculus with 34 samples.

Results

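Hnrnpk and the 4 poly(C)-binding protein genes Pcbp1, Pcbp2, Pcbp3 and Pcbp4 were followed in mRNA-seq of embryonic mouse limb buds, in which Hnrnpk itself had been deleted. The 5 genes were taken by symbol from a deposited table of 22040 genes, and each symbol matched 1 gene. RNA came from limb buds at E11.5, with 3 WT libraries and 3 CKO libraries that carried the replicate numbers 1 to 3 and that the study described as biological replicates. WT libraries were labelled as wild type for Hnrnpk, without further alleles. CKO embryos were Prrx1-Cre;Hnrnpk fl/fl, and both sexes were used. Prrx1-Cre is active in limb bud mesenchyme and not in the blood, endothelial or surface ectoderm cells of the same tissue. A CKO limb bud therefore still holds cells with an intact Hnrnpk gene. The study also proposes that Prrx1-Cre may ablate Hnrnpk incompletely in the hindlimb, and the libraries are not labelled as forelimb or hindlimb.

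The proteins of this family bind stretches of cytosine in RNA and in single-stranded DNA through K homology (KH) domains. Hnrnpk encodes hnRNP K, which shuttles between nucleus and cytoplasm, acts in transcription, splicing, mRNA stability and translation, and works with p53 as a coactivator. Pcbp1 encodes an intronless-gene product, PCBP1 (hnRNP E1), which represses translation and delivers iron to ferritin. PCBP2 (hnRNP E2) stabilises mRNAs such as that of alpha globin, and PCBP3 and PCBP4 are less studied relatives, PCBP4 being known as a target of p53.

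On the mouse assembly GRCm38, with the GENCODE vM21 annotation, Hnrnpk lies at chr13:58391142-58403343 on the minus strand. Pcbp1 lies at chr6:86524492-86526321 on the minus strand, with 1 annotated transcript. Pcbp2 lies at chr15:102470539-102500061 on the plus strand. Pcbp3 lies at chr10:76761857-76961887 on the minus strand. Pcbp4 lies at chr9:106453291-106464012 on the plus strand. The family is therefore spread over 5 chromosomes.

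The loxP sites flank exons 4 to 7 of the 18 exons of Hnrnpk, at chr13:58397753-58400417. In the RefSeq transcript by which the study numbers its exons, these hold 284 of 2980 bases (9.53%) and 257 of its 1395 coding bases (18.4%), with the start codon in exon 4. The coding part equals 85 whole codons and 2 further bases. It is printed below, followed by the primers with which the study measured or stained the transcript, since they show which bases each assay read. In the first line capitals mark the start codon, and in the primers they mark bases that lie in the floxed exons. All run 5′ to 3′, and the first is on the minus strand of chr13:58397753-58400390 on GRCm38.
Coding bases of exons 4 to 7: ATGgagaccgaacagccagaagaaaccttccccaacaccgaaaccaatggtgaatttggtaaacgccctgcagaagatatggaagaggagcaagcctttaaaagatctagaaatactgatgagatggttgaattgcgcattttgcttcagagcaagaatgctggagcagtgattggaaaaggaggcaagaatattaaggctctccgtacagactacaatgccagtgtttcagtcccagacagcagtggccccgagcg
qPCR forward primer, exons 6 and 7: CCGTACAGACTACAATGCCAG
qPCR reverse primer, exons 8 and 9: gccctcttccaaggtagggat
In situ probe, forward primer, exon 4: TTCCCCAACACCGAAACCAA
In situ probe, reverse primer, exons 13 and 14: ccatgccatcatagcggtct

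Each primer pair has its forward primer inside the deleted part and its reverse primer outside it. The mRNA-seq values do not single out these exons. They were deposited as FPKM, fragments on the whole gene scaled to the length of the gene and the size of the library. The floxed span holds 973 of the 6466 merged exon bases of Hnrnpk over all its transcripts (15.05%), so most bases counted lie outside the deletion. The FPKM of Hnrnpk thus checks the labels only in part.

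**Figure D1:**
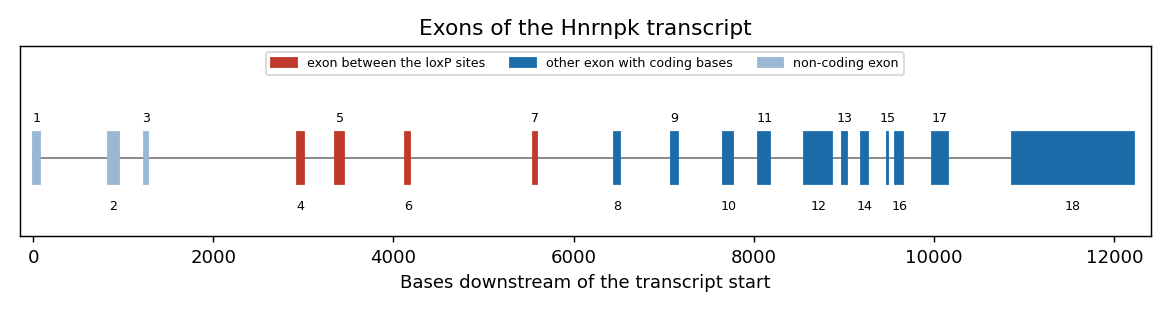
Exons of the Hnrnpk transcript drawn to scale, with the distance downstream of the transcript start in bases on the horizontal axis and exon numbers beside the boxes. The 4 red boxes (exons 4 to 7) lie between the loxP sites and hold 9.53% of the transcript, and the 3 pale exons before them carry no coding bases.

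Hnrnpk fell short of the WT range in each of the 3 CKO libraries. WT replicates 1, 2 and 3 had 193.0, 194.6 and 185.2 FPKM, with 22493, 30114 and 26123 reads behind them. CKO replicates 1, 2 and 3 had 127.1, 142.0 and 135.3 FPKM, from 14872, 17580 and 20869 reads. The groups did not overlap, and the 3 WT values lay closer to each other than to any CKO value. The mean was 190.9 ± 4.996 FPKM in WT and 134.8 ± 7.48 in CKO (SD, n = 3), which left 70.6% of the WT level. Within the same replicate number the CKO library held 65.9%, 73.0% and 73.1% of the WT level.

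The log2 fold change of Hnrnpk was -0.50 (SE 0.13, 95% confidence interval -0.80 to -0.21) on the log2(FPKM + 0.1) scale, fitted with limma across all 12305 genes with a mean of at least 0.5 FPKM. The adjusted p value was 0.334 (Benjamini-Hochberg over all genes), with an unadjusted value of 0.00448 in limma. With the replicate number as a block, limma gave an adjusted p value of 0.0575. The same block gave 0.0237 with limma voom on the reads behind the FPKM, a fit in which 5.11% of all genes passed. It gave 0.00256 with limma when replicates 2 and 3 were fitted alone (log2 fold change -0.45). In that fit 18.5% of all genes passed, among them Fth1, Glrx3, Rps3, Hba-a1 and Hba-a2, which are described below. That fit leaves few libraries to estimate the spread and rests on the pairing of replicates 2 and 3, which is uncertain. The exact two-sided permutation test over the 6 libraries gave p = 0.1, the smallest value that 3 against 3 allows. The difference therefore passed the threshold of 0.05 in 2 of 18 alternative fits and kept its direction in all of them. In some of these, such as other filters on low values or the block in limma on FPKM, the estimate cannot change by design.

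In limma without the block, 0 of the 5 genes passed an adjusted p of 0.05, as did 0.065% of all genes tested. With the block the count was again 0 of 5, against 2.81% of all genes. At an unadjusted p of 0.05, 1 of the 5 passed (Hnrnpk), against 8.31% of all genes. By position alone, 1 of 5 had every CKO library below every WT library, against 8.86% of all genes, and 0 of 5 had every CKO library above, against 5.63%. A log2 fold change as low as that of Hnrnpk, or lower, was found for 458 genes (3.72% of those tested).

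Markers of the limb mesenchyme, the tissue in which the Cre acts, were read as a second measure. The summed FPKM of 8 mesenchyme markers (Prrx1, Prrx2, Twist1, Pdgfra, Msx1, Tbx5, Tbx4 and Lmx1b), all of them detected, ran from 343.4 to 352.4 in WT and from 282.7 to 326.3 in CKO, without overlap. Of these markers 7 had a lower mean log2 value in CKO, as did 6041 of all 12305 genes tested. The 7 include Tbx4 at -0.0033. Only Pdgfra and Tbx5 had every CKO library below every WT library, as did 8.86% of all genes tested. In limma without the block 0 passed the adjusted threshold, against 0.065% of all genes. The study names Lmx1b among the genes whose expression Hnrnpk maintains, so its level does not measure mesenchyme alone. Tbx5, a forelimb transcription factor, passed in limma with the block (log2 fold change -0.93, adjusted p = 0.00734), as did 2.81% of all genes. In whole tissue, fewer mesenchymal cells and less RNA per cell cannot be told apart, and the part of this difference in the lower level of Hnrnpk was not tested.

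Genes of red blood cells, which do not carry the deletion, differed widely between libraries. In the order of replicates 1, 2 and 3, the 7 globin genes took 13.7%, 19.5% and 20.6% of all FPKM in WT and 11.7%, 32.4% and 23.5% in CKO. When FPKM were rescaled to the total outside globin genes, the median of all genes moved to -0.10 on the log2 scale. Hnrnpk then changed by -0.61 (limma adjusted p = 0.321), which is -0.51 relative to that median, as without the rescaling. The rescaling multiplies all genes of a library by a common factor, so this distance could hardly change and tests nothing. The summed markers of surface ectoderm (9 genes, 47.8 to 79.1 FPKM in WT and 52.6 to 81.1 in CKO), endothelium (6 genes, 21.0 to 30.3 and 14.97 to 24.1), muscle precursors (5 genes, 8.96 to 24.1 and 19.7 to 27.7), macrophages (6 genes, 12.5 to 20.2 and 14.2 to 24.3) and Schwann or neural crest cells (5 genes, 3.27 to 7.94 and 6.56 to 8.29) overlapped between the groups. Of the endothelial markers 6 of 6 had a lower mean log2 value in CKO, while 9 of 9 erythroid, 7 of 9 ectoderm, 4 of 4 tested muscle precursor, 4 of 5 tested macrophage and 3 of 3 tested Schwann or neural crest markers had a higher one. None of these markers passed in limma without the block, where 0.065% of all genes passed, or with it, where 2.81% did. Their part in the results was not tested.

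Pcbp1 was the most variable of the abundant members. In the order of replicates 1, 2 and 3, the WT libraries had 253.0, 218.8 and 205.4 FPKM and the CKO libraries 259.8, 191.2 and 228.2. The highest and the lowest library were both CKO. The means were 225.7 ± 24.6 in WT and 226.4 ± 34.3 in CKO (SD, n = 3). Its log2 fold change was -0.0016 (95% confidence interval -0.40 to 0.40, limma adjusted p = 0.997), and its sign turned in 5 of 18 alternative fits.

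Pcbp2 had 156.9, 148.1 and 146.8 FPKM in WT and 174.0, 148.2 and 170.0 in CKO. CKO replicates 1 and 3 were above all WT libraries, while CKO replicate 2 lay among them. The CKO level was 111%, 100.02% and 116% of the WT level within replicates 1, 2 and 3. This gave a log2 fold change of 0.12 (95% confidence interval -0.19 to 0.43, limma adjusted p = 0.867). The interval leaves room for a rise of 0.43, and the difference was not past the threshold in any of 18 alternatives, where the value ran from 0.01 to 0.19.

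Pcbp3 was the scarcest member, with 237 to 406 reads a library. It had 6.81, 5.38 and 5.57 FPKM in WT and 7.65, 4.22 and 4.99 in CKO. Replicate 1 was the highest of its group in both WT and CKO. The log2 fold change of -0.11 (95% confidence interval -0.63 to 0.41, limma adjusted p = 0.927) had the widest interval of the 5 without the block. With the block the interval narrowed to between -0.38 and 0.16. It ran from -0.35 without CKO replicate 1 to 0.07 without CKO replicate 2, so its direction rested on single libraries.

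Pcbp4, a gene of moderate level, varied little. It had 46.1, 48.2 and 41.2 FPKM in WT and 44.1, 42.8 and 44.0 in CKO. All 3 CKO values fell inside the WT range. The log2 fold change was -0.05 (95% confidence interval -0.31 to 0.22, limma adjusted p = 0.943).

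**Figure D2:**
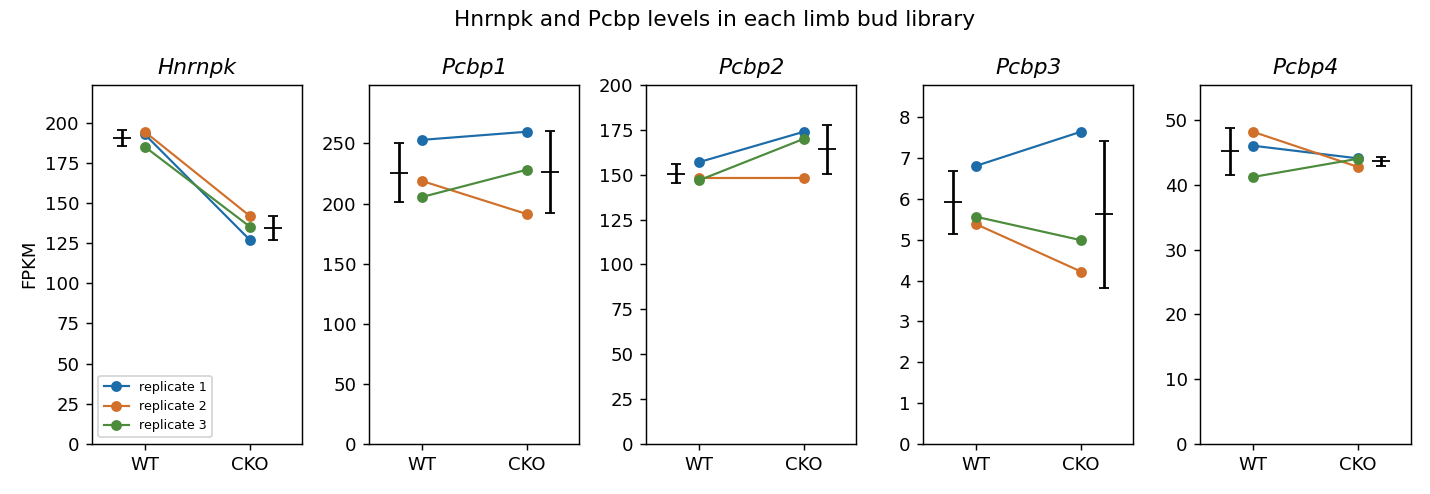
FPKM of each gene (vertical axes, each starting at 0 with its own scale) in the WT and CKO libraries, with lines joining libraries of the same replicate number and black marks for the group mean ± SD (n = 3). Every line slopes down for Hnrnpk (185.2 to 194.6 FPKM in WT, 127.1 to 142.0 in CKO), while the WT and CKO ranges of the 4 Pcbp genes overlap.

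**Figure D3:**
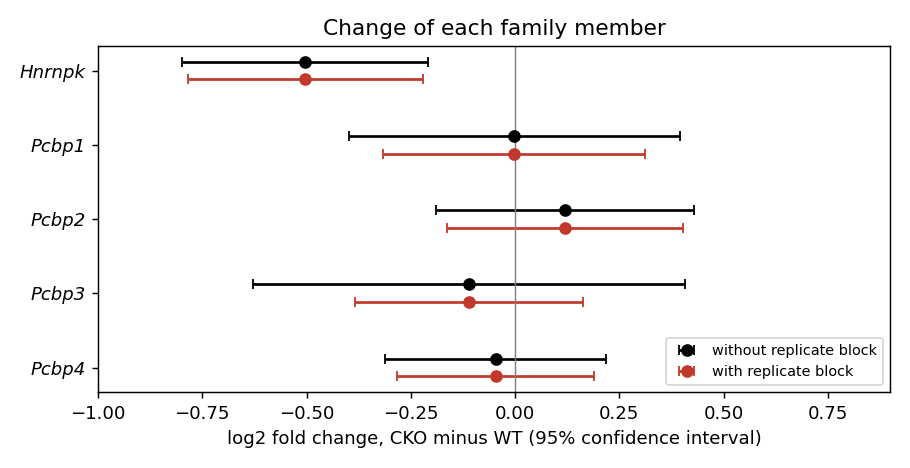
Log2 fold change of each gene, CKO minus WT, from limma, with bars for the 95% confidence interval without (black) and with (red) the replicate number as a block. Both intervals of Hnrnpk lie below 0, and all intervals of the Pcbp genes include 0.

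None of the Pcbp genes passed the threshold in limma or limma voom under any of the 18 alternatives each. At an unadjusted p of 0.05 the limma count was also 0 of 4, against 8.31% of all genes. A rise of a Pcbp gene in CKO was not detected at this precision, and the intervals above give the sizes that remain possible. The summed FPKM of the 4 Pcbp genes by replicate number was 462.8, 420.6 and 399.0 in WT and 485.5, 386.4 and 447.2 in CKO, with overlapping groups.

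Hnrnpk was also set against each relative within a library. Such a ratio is free of any factor that scales a whole library. The log2 ratio of Hnrnpk to Pcbp2 was 0.30, 0.39 and 0.34 for replicates 1, 2 and 3 of WT and -0.45, -0.06 and -0.33 for those of CKO. It was positive in every WT library and negative in every CKO library, and the difference of the means was -0.62. Its sign depends on the gene lengths used. Divided by the transcript lengths given below, Hnrnpk stayed above Pcbp2 in CKO replicates 2 and 3. The log2 ratio of Hnrnpk to Pcbp1 was -0.39, -0.17 and -0.15 in WT and -1.03, -0.43 and -0.75 in CKO, a difference of -0.50. The log2 ratio of Hnrnpk to Pcbp4 was 2.06, 2.01 and 2.17 in WT and 1.52, 1.73 and 1.62 in CKO, a difference of -0.46. The groups did not overlap for these 3 ratios. Since Hnrnpk alone separates the groups, its ratio to any steady gene would do so too, and this says little about the Pcbp genes. The log2 ratio of Hnrnpk to Pcbp3 did overlap, with 4.80, 5.15 and 5.03 in WT and 4.04, 5.04 and 4.73 in CKO.

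The exact two-sided permutation test over 6 libraries gave p = 0.1 for the ratios to Pcbp1, Pcbp2 and Pcbp4 and 0.3 for the ratio to Pcbp3. After Benjamini-Hochberg adjustment over the 4 ratios these were 0.133 and 0.3. A design of 3 against 3 cannot reach an exact p below 0.1. The 4 ratios share the Hnrnpk values and are not independent of each other. Each ratio was lower in CKO within all 3 replicate numbers, by 0.45 to 0.75 for Pcbp2 on the log2 scale and by 0.11 to 0.77 for Pcbp3.

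**Figure D4:**
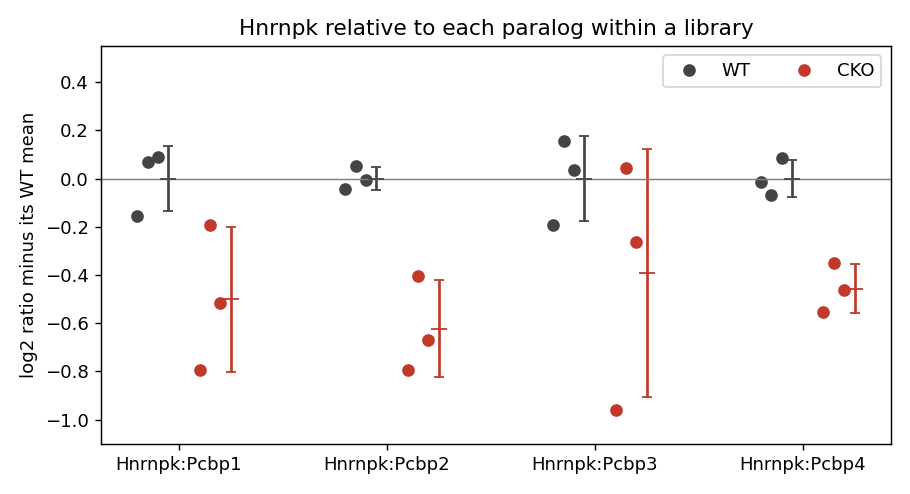
Log2 ratio of Hnrnpk to each paralog within a library, minus the mean of the WT libraries (vertical axis), for 3 WT (grey) and 3 CKO (red) libraries, with the group mean ± SD. The CKO points lie below all WT points for the ratios to Pcbp1, Pcbp2 and Pcbp4, and 1 CKO point lies among the WT points for the ratio to Pcbp3.

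As a share of the summed FPKM of the 5 genes, Hnrnpk made up 29.4%, 31.6% and 31.7% for replicates 1, 2 and 3 of WT and 20.7%, 26.9% and 23.2% for those of CKO. In all 3 WT libraries the FPKM order was Pcbp1, Hnrnpk, Pcbp2, Pcbp4 and Pcbp3. In all 3 CKO libraries Pcbp2 stood above Hnrnpk. In CKO the ranges of Pcbp1 and Pcbp2 did not overlap, and Pcbp4 and Pcbp3 were far below the others.

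The order at the top depends on the length by which a gene is divided. The merged exon length of all transcripts, 6466 bases for Hnrnpk and 5203 for Pcbp2, turned the FPKM back into whole reads for every member but Pcbp2, for which the length used by the authors is therefore uncertain. The longest protein-coding transcripts in GENCODE have 2970 and 3222 bases, that of Hnrnpk differing slightly from the RefSeq transcript above. Pcbp1, with its single transcript, has 1830 bases either way. Divided by these transcript lengths instead, an alternative chosen after seeing the data, the mean level of Hnrnpk was 415.7 in WT and 293.5 in CKO, that of Pcbp2 was 243.2 and 264.9, and that of Pcbp1 was 225.7 and 226.4. Hnrnpk then led the family in 3 of 3 WT libraries and in CKO replicates 2 and 3, and Pcbp2 led in CKO replicate 1. The lower places of Pcbp4 and Pcbp3 held with both lengths, as did the lower share of Hnrnpk in CKO, 40.7% to 43.0% in WT and 30.1% to 37.1% in CKO.

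Copies elsewhere in the genome touch Hnrnpk more than its relatives. Of the 2970 bases of its longest coding transcript in GENCODE, 1969 (66.3%) matched other loci at 95% identity or more over at least 100 bases. These loci were the processed pseudogenes Gm7964, at chr7:83755823-83757793 with 99.29% identity over 1971 bases, and Gm4130, at chr13:91260931-91262420 with 97.26% over 1494 bases. Pcbp2 had 117 such bases (3.63%), in the processed pseudogene Gm12186, and Pcbp1, Pcbp3 and Pcbp4 had 0. No such stretch was shared between the 5 genes. How reads with several matches were counted is not given in the sources used here, so the level of Hnrnpk is uncertain to that extent.

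Genes that share exon bases with the family were read beside it. Hnrnpk overlaps Rmi1, a partner of the BLM helicase on the opposite strand, over 330 bases. Rmi1 had 15.3, 11.9 and 11.2 FPKM in WT and 12.5, 12.5 and 11.7 in CKO (log2 fold change -0.05, limma adjusted p = 0.948), and its groups overlapped. Pcbp2 overlaps Map3k12, a neuronal stress kinase gene, over 1573 bases on the opposite strand, and Map3k12 had 15.8 to 18.3 FPKM in WT and 16.1 to 19.8 in CKO (log2 fold change 0.04, limma adjusted p = 0.956). Its sign turned with the rescaling outside globin genes.

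Pcbp4 shares 51 bases with Gpr62, an orphan receptor gene on the opposite strand. Gpr62 had 1.23, 1.16 and 1.51 FPKM in WT and 0.643, 0.370 and 0.827 in CKO, low values beside the mean of 0.5 FPKM needed for testing. Every CKO library was below every WT library, as for 8.86% of all genes. The log2 fold change was -1.02 (SE 0.28, limma adjusted p = 0.366), and -0.52 with a pseudocount of 1. Gpr62 passed the threshold once the replicate number was a block (limma adjusted p = 0.0273), as did 2.81% of all genes. The libraries were made with a stranded kit, but the strand setting of the counting is not given in the sources used here. The overlapping transcripts 1600020E01Rik (75 bases of Pcbp1), Gm26518 and Gm27406 (129 and 182 bases of Pcbp2) were not analysed here.

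Of the 3 nearest protein-coding genes on each side of Hnrnpk, 4 were tested. In limma 0 of 4 passed the threshold without the block, against 0.065% of all genes, and 0 of 4 with it, against 2.81%. At an unadjusted p of 0.05 the count was also 0 of 4, against 8.31% of all genes. So few genes say little about the neighbourhood. On the 3′ side, 2210016F16Rik at 5917 bases had 6.47 to 7.48 FPKM in WT and 5.09 to 7.23 in CKO (log2 fold change -0.13, limma adjusted p = 0.880). Kif27, a kinesin gene, had -0.27 (adjusted p = 0.837) and Gkap1 had -0.17 (adjusted p = 0.838) on the log2 scale in limma. On the 5′ side, Agtpbp1, a tubulin deglutamylase gene, had -0.05 (limma adjusted p = 0.963). Slc28a3 (0.00699 to 0.0397 FPKM over all libraries) and Ntrk2 were too low to be tested. Ntrk2, the BDNF receptor gene, had 0.135 to 0.295 FPKM in WT and 0.0785 to 0.0888 in CKO.

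Other genes with KH domains showed no common direction. Of 34 such genes, 31 were tested, of which 16 had a higher and 15 a lower mean in CKO. The median log2 fold change was 0.01, against 0.00 for all genes tested. In limma, 0 passed the adjusted threshold without the block, against 0.065% of all genes, and 0 with it, against 2.81%. At an unadjusted p of 0.05, where 8.31% of all genes passed, 2 of 31 did. These were Fubp1 (log2 fold change 0.34, adjusted p = 0.473) and Khdrbs3 (-0.37, adjusted p = 0.549), which were named after their values were seen. The most abundant members were Rps3, a protein of the small ribosomal subunit (190.3 to 268.0 FPKM in WT and 172.6 to 366.0 in CKO), Khdrbs1, the signalling adaptor Sam68 (63.8 to 71.1 and 58.3 to 68.3), and the splicing factor gene Sf1 (56.9 to 75.8 and 49.0 to 88.3). The groups overlapped for all 3.

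PCBP1 and PCBP2 are known as iron chaperones, so the genes of their clients and of iron handling were read as well. All 11 were tested, and 10 had a higher mean in CKO, as did 6264 of all 12305 genes tested. The median log2 fold change was 0.21 against 0.00 for all genes, and it ran from 0.064 without CKO replicate 2 to 0.39 without CKO replicate 1. In limma 0 passed the adjusted threshold without the block, against 0.065% of all genes, and 0 with it, against 2.81%. At an unadjusted p of 0.05, where 8.31% of all genes passed, 0 of the 11 did. Within replicate numbers the median was -0.05, 0.33 and 0.17 for replicates 1, 2 and 3, and the globin share moved with it, lower in CKO for replicate 1 and higher for replicates 2 and 3. The ferritin heavy chain gene Fth1 had 772.3, 859.3 and 844.4 FPKM in WT and 761.8, 1308 and 1220 in CKO (log2 fold change 0.37, limma adjusted p = 0.768). Ftl1, the ferritin light chain gene, had 0.21 (limma adjusted p = 0.856), and the glutaredoxin gene Glrx3, an iron-sulfur partner, had 0.26 (limma adjusted p = 0.837). The part of red blood cells in these values was not tested.

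Among 13 genes known as targets or partners of hnRNP K and the PCBPs, 11 were tested. Of these 8 had a higher and 3 a lower mean in CKO, and 6264 of all 12305 genes had a higher one. The median log2 fold change was 0.11, against 0.00 for all genes. In limma 1 passed without the block, against 0.065% of all genes, and 1 with it, against 2.81%. This was Cdkn1a, the cell cycle inhibitor p21 and a p53 target. It had 4.44, 6.60 and 5.59 FPKM in WT and 21.5, 26.5 and 28.3 in CKO. Every CKO library was more than 3 times above every WT library. The log2 fold change was 2.19 (SE 0.18, limma adjusted p = 0.0101), and over all alternatives it ran from 2.02 to 2.32. The adjusted p rose to 0.117 in limma without WT replicate 3, to 0.0782 without CKO replicate 2 and to 0.117 without CKO replicate 3. Mdm2, also a p53 target and the ligase for p53, had a log2 fold change of 0.11 (limma adjusted p = 0.908), and Myc had -0.02 (limma adjusted p = 0.995).

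The alpha globin mRNAs, known to be bound by PCBP1 and PCBP2, are part of the globin share given above. Hba-a1 had 2308, 4130 and 4155 FPKM in WT and 1841, 9350 and 5667 in CKO (log2 fold change 0.43, limma adjusted p = 0.893). Hba-a2 had 533.4 to 1063 in WT and 553.3 to 1695 in CKO. Both are near-identical copies whose reads could be split between them. Eif4e, the cap-binding factor gene, had 32.4 to 34.6 FPKM in WT and 29.0 to 42.8 in CKO, with overlapping groups.

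The members were also compared by their pattern over the 6 libraries. Likeness was measured as the root mean square difference of log2(FPKM + 0.1), each gene centred on its own mean, so that 0 means the same pattern and a difference in amplitude counts as a difference. Between members it was 0.11 for Pcbp1 and Pcbp2, 0.12 for Pcbp2 and Pcbp4, 0.14 for Pcbp1 and Pcbp4, 0.15 for Pcbp1 and Pcbp3, 0.24 for Pcbp2 and Pcbp3 and 0.27 for Pcbp3 and Pcbp4. From Hnrnpk the distances were 0.24 to Pcbp4, 0.32 to Pcbp1, 0.33 to Pcbp2 and 0.37 to Pcbp3. In the order of likeness to Hnrnpk over all tested genes, its nearest relative, Pcbp4, stood at place 2181. In the order of likeness to Pcbp1, Pcbp2 stood at place 930.

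The 5 genes nearest to Hnrnpk were Tmem183a (0.057), Tspan14 (0.060), Col4a5 (0.065), Prkar2b (0.065) and Tnpo3 (0.068). For each of them the 3 CKO libraries lay below the 3 WT libraries, which the choice by likeness to Hnrnpk brings with it. Nearest to Pcbp1 were Got2 (0.015) and Hnrnpl (0.023), to Pcbp2 Sf3b2 (0.017) and Mmp2 (0.028), to Pcbp3 Ror2 (0.024) and Kdm6b (0.025), and to Pcbp4 Mogs (0.013) and Tstd3 (0.014). These names depend on the pseudocount. With a pseudocount of 1, an alternative chosen after seeing the data, 1 of the 5 nearest to Hnrnpk, 1 of 2 each for Pcbp1 and Pcbp2, 0 of 2 for Pcbp3 and 2 of 2 for Pcbp4 were the same genes.

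**Figure D5:**
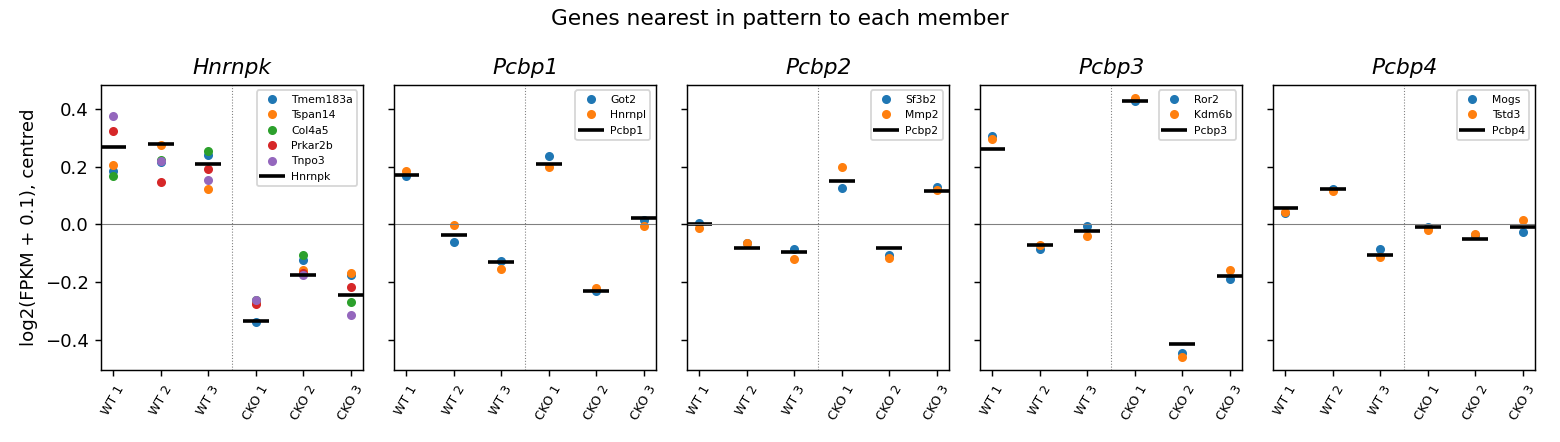
Centred log2(FPKM + 0.1) of each member (black bars) and of the genes nearest to it (coloured points) in the 6 libraries, WT left and CKO right of the dotted line. Hnrnpk and its 5 nearest genes lie above 0 in all WT libraries and below 0 in all CKO libraries, and the Pcbp panels show no such split.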

How the data were processed

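Libraries of the other assays (chromatin accessibility, factor binding, chromosome conformation) were not analysed here. For mRNA-seq, libraries came from a stranded kit, and the FPKM deposited by the authors, 1 column for each of 6 libraries, were used without change. The submitters' processing notes name cutadapt 2.5, HISAT2 2.1.0, featureCounts 1.6.3 and the build mm10, without saying which step used which. The annotation, the strand setting and the treatment of reads with several matches are not given in the sources used here. Multiplied by merged exon lengths of GENCODE vM21, which held 22010 of 22040 identifiers, the FPKM gave whole reads in all libraries for 92.7% of genes (tolerance 0.1 reads), with 17143034 to 24627737 reads on genes per library. In CKO replicates 2 and 3 these were 1.11 and 1.03 times the library size by which the FPKM had been divided, against 0.947 to 0.968 in the others.

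The 12305 genes whose mean FPKM reached 0.5 were compared on the log2(FPKM + 0.1) scale with limma 3.58.1 in R 4.3.3 (eBayes with trend, Benjamini-Hochberg adjustment over all genes). Because the table holds FPKM, a fit to the recovered whole reads with limma voom served as an alternative, in which 10 genes passed an adjusted p of 0.05. Ratios within a library were compared by exact two-sided permutation tests in scipy 1.17.1. Copies were searched with blastn 2.17.0. Coding bases of the deleted exons were read from the GRCm38 sequence, and primers from the study's supplement.

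The members, gene lists and tests were chosen with earlier results of these data known, so lists such as the one that holds Cdkn1a are no independent evidence. Genes named are the members, genes sharing exon bases with them, the 3 nearest on each side of Hnrnpk, the 3 most abundant and those past the threshold of each list, and the genes nearest in pattern. The p values measure the spread between libraries described as biological replicates.

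The replicate numbers are shared between the groups. The correlation of the deviations from the group mean, taken over genes (no independent replicates), gave 0.64, 0.44 and 0.27 for numbers 1, 2 and 3. All exceeded 0.1, so the number served as a block in alternative fits, while the main fit had no block. The opposite matching of numbers 2 and 3 was no weaker, however. WT replicate 2 with CKO replicate 3 had 0.49, and WT replicate 3 with CKO replicate 2 had 0.31, so a value above 0.1 does not identify a pair. Pairing of replicates 2 and 3 is therefore uncertain, and so are the p values that rest on the block. Neither labels nor methods say what a number stands for.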

Additional observations from a re-analysis of the deposited data

How the results depend on the processing

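The difference of Hnrnpk kept its direction in all 18 alternatives (-0.63 to -0.45 on the log2 scale), although some of them cannot change the estimate by design. It passed the limma threshold with voom on recovered reads and the replicate block (-0.49) and with replicates 2 and 3 alone and the block (-0.45). Both fits rest on the uncertain pairing of replicates 2 and 3. With a library left out the difference of Hnrnpk ran from -0.54 to -0.46. Pcbp1 turned to 0.015 with median-ratio scaling, 0.0093 with voom and 0.0086 with voom and the block, and ran from -0.11 to 0.11 with a library left out, as Pcbp3 did from -0.35 to 0.069 and Pcbp4 from -0.11 to 0.0021. Pcbp2 stayed positive. The cause of these turns was not tested. All ratios of Hnrnpk to a Pcbp gene kept their direction under every alternative. Pairing by replicate number cannot change these differences, and it left the exact p at 0.25, the smallest that 3 pairs allow.

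Without the block, 8 genes passed in limma. The count was 14 with quantile normalization, 4 with scaling outside globin genes, 346 with the replicate block (139 higher and 207 lower in CKO), 628 with voom and the block, 2280 for replicates 2 and 3 alone with the block, and 1 to 23 with a library left out, 1 when WT replicate 3 was left out or either of CKO replicates 2 and 3, 3 without WT replicate 2 and 23 without CKO replicate 1. In limma on FPKM, where 2.81% of all genes passed with the block, the block changed the calls of Gpr62, Tbx5, Tmem183a, Prkar2b and Tnpo3, and of no other gene named. In voom, where 5.11% passed with the block, it changed these and also those of Hnrnpk, Hba-a2, Lmx1b and Tspan14. Tmem183a, Prkar2b, Tnpo3 and Tspan14 were chosen by likeness to Hnrnpk, which brings lower CKO values with it. The target list held 0 to 1 called genes with a library left out.

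Among small changes of the other genes named, rescaling outside globin genes turned Map3k12 (-0.066), Sf1 (-0.077) and Eif4e (-0.014), quantile normalization turned Agtpbp1 (0.016), Sf1 (-0.028) and Ftl1 (-0.018), and replicates 2 and 3 alone turned Rmi1 (0.068), Map3k12 (-0.022) and Sf1 (-0.065). With a library left out, Rmi1 ran from -0.14 to 0.083, Map3k12 from -0.034 to 0.11, Agtpbp1 from -0.14 to 0.072, 2210016F16Rik from -0.23 to 0.016, Khdrbs1 from -0.10 to 0.013, Sf1 from -0.20 to 0.23, Eif4e from -0.035 to 0.24 and Hba-a1 from -0.078 to 1.09. With pseudocounts of 0.5 and 1, Gpr62 moved to -0.71 and -0.52. Pcbp3 had the fewest reads of the 5 members (237 to 406 a library).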
